A study of Mus musculus with 21 samples.

Results

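An Rbm10 gene trap line of mouse embryonic stem (ES) cells was compared with the line it was made from, by sequencing of polyadenylated RNA. Of the 21 samples of the series, 6 belong to the comparison: 3 of the gene trap line CSI176, here gene trap 1 to 3, and 3 of its parental line E14Tg2a.4, here parental 1 to 3. These libraries were chosen by their labels. CSI176 is hemizygous for the trap, an insertion that captures the transcript of the gene it lands in, since the cells are male and Rbm10 is on the X chromosome. Both lines are from BayGenomics and were grown on gelatin in medium with serum and leukaemia inhibitory factor (LIF). Each group is 1 line, so the trap and any other difference between the lines cannot be told apart. The RNAs are called triplicates, and no label says that they came from separate cultures, so the p-values cover only the scatter among these libraries, part or all of which may be technical. The other samples used are from md cells, a mandibular mouse embryonic pharyngeal arch (MEPA) line: 4 RBM10 knockout lines made with CRISPR/Cas9, 3 wild-type libraries, and iCLIP libraries, 4 with an RBM10 antibody and 4 with IgG, which map where a protein was crosslinked to RNA.

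RBM10 is an RNA-binding protein of the spliceosome that changes whether alternative exons are kept or skipped. ES cells in serum and LIF move between a naive state, marked by factors such as Nanog, Esrrb, Klf4 and Tbx3, and a more advanced state close to the primed epiblast, marked by Pou3f1, Otx2, Lef1 and the DNA methyltransferases Dnmt3a and Dnmt3b. The integrated stress response is the programme that cells switch on through the transcription factor ATF4 when amino acids run short or protein folding fails.

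Levels are in TPM, transcript abundance corrected for transcript length and scaled to the same total in every library, and were summed over the transcripts of a gene. Values were given for 34369 genes. Of these, 12860 reached 1 TPM in 3 or more of the 6 libraries and were tested with limma on log2(TPM + 1). A log2 fold change is gene trap minus parental on that scale, which understates the change of low genes. "Rose", "fell" and "passed" are used of a Benjamini-Hochberg adjusted p under 0.05 over all tested genes. The files used give no read counts, so the depth is unknown.

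The cells had the markers of their label. All 10 ES cell markers, among them Pou5f1, Sox2 and Nanog, were at 1 TPM or more in every library, and their sum ran from 4902 to 5664 TPM in parental libraries and from 5025 to 5272 TPM in gene trap libraries. Of 8 fibroblast markers, 7 were under 1 TPM in every library, and Postn and Lum were listed at 0 throughout. Of 6 primitive endoderm markers, Gata6, Sox17, Sox7 and Pdgfra were under 1 TPM throughout, and the list summed to 6.60 to 7.36 TPM in the gene trap line against 2.85 to 3.81 TPM in the parental line. The mesendoderm markers Mixl1, Gsc and Foxa2 and the trophectoderm markers Cdx2 and Elf5 were under 1 TPM in every library. The trophectoderm list summed to 3.81 to 5.27 TPM against 0.665 to 1.62 TPM. Neural markers (53.6 to 77.0 TPM against 64.6 to 70.8 TPM) and markers of the 2-cell-like state (98.6 to 142 TPM against 104 to 137 TPM) overlapped. In RNA from bulk cultures, fewer cells of a type and less RNA per cell cannot be told apart.

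Rbm10 itself (chrX:20194629-20228027, plus strand, NCBIM37/mm9) was at 32.5, 33.5 and 32.2 TPM in parental 1 to 3 and at 4.27, 3.63 and 4.25 TPM in gene trap 1 to 3. The groups lay far apart and each was tight (log2 fold change -2.74, SE 0.09, limma adjusted p = 6.69e-05), and the gene passed in all 6 fits that left out 1 library. What remained was assigned to other transcripts. The main protein-coding form, Rbm10-002, was at 26.9, 23.8 and 22.0 TPM in the parental line, and Rbm10-202, another coding form, at 4.60, 9.35 and 9.63 TPM, and both were listed at 0 in all 3 gene trap libraries. A processed transcript of 17 exons, Rbm10-003, had the opposite pattern: it was listed at 0 in the parental line and was at 3.54, 2.87 and 3.58 TPM in the gene trap line. Its annotated end, position 20226322, lies short of the ends of the coding forms at 20227810 to 20228027. Rbm10-003 made up 82.1% of the gene's TPM (SD 2.62, n = 3) in the gene trap line. The rest was assigned to 2 coding forms of 24 exons. Rbm10-004 was at 0.95, 0.37 and 0.62 TPM in the parental line and at 0.31, 0.55 and 0.55 TPM in the gene trap line. Rbm10-001 was at 0.02, 0 and 0 TPM against 0.41, 0.21 and 0.13 TPM. The paralogs did not pass, Rbm5 at 2.75, 3.59 and 2.09 TPM against 4.18, 3.24 and 7.83 TPM (log2 fold change 0.62, limma adjusted p = 0.173) and Rbm6 at 6.10, 5.45 and 4.32 TPM against 6.90, 7.06 and 6.56 TPM (log2 fold change 0.33, limma adjusted p = 0.123).

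**Figure D1:**
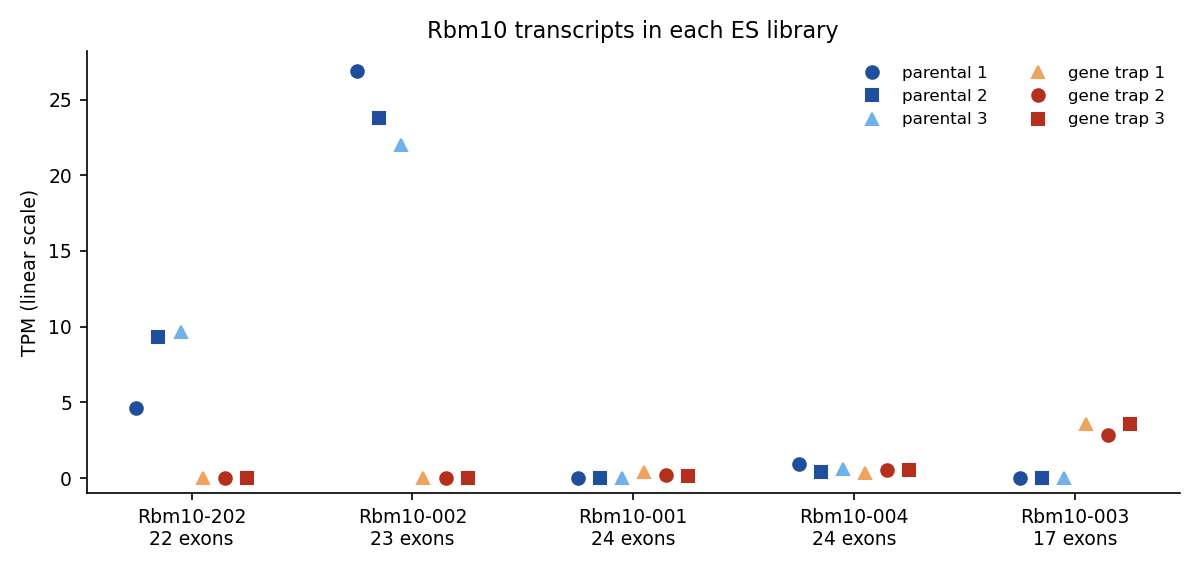
TPM on a linear scale (vertical axis) of 5 Rbm10 transcripts (horizontal axis), each point 1 library. The coding forms Rbm10-002 and Rbm10-202 have values above 0 in the parental libraries alone, and the processed transcript Rbm10-003 in the gene trap libraries alone.

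Across genes the libraries did not form tight triplets. Pearson's r of log2(TPM + 1) across the tested genes, which are not independent replicates, was 0.993 between parental 1 and 2 and 0.988 between gene trap 2 and 3. Gene trap 1 had the same r with parental 1 as with gene trap 2 (0.979 each), and parental 3 had an r of 0.982 with parental 1. To place these libraries, a difference D was taken for each gene between the mean of gene trap 2 and 3 and the mean of parental 1 and 2 on the log2 scale. A position was then read off, with the mean of parental 1 and 2 at 0 percent and that of gene trap 2 and 3 at 100 percent. Over the 717 genes with a D of at least 1 in size, the median position of gene trap 1 was 51.7 percent and that of parental 3 was 23.1 percent.

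A gene was counted as uniform when the lines did not overlap and the range within each was at most 1/3 of the difference of their means, and as between when gene trap 1 and parental 3 both lay strictly inside the gap left by the other 4 libraries. The uniform rule held for 47 genes (0.365% of those tested) and the between rule for 394 (3.06%). Both held for 16 genes, Rbm10 among them, so that 31 genes were uniform only and 378 between only, and 292 of the 717 met neither rule. The classes are descriptions: they use the same libraries as the test, so a small spread, and with it a low p, is built into the uniform class. At the threshold, Cep70 lay just inside with 9.19, 8.89 and 7.09 TPM against 6.58, 3.91 and 4.12 TPM, and Pld3 just outside with 56.7, 55.7 and 66.9 TPM against 53.2, 26.9 and 28.3 TPM.

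**Figure D2:**
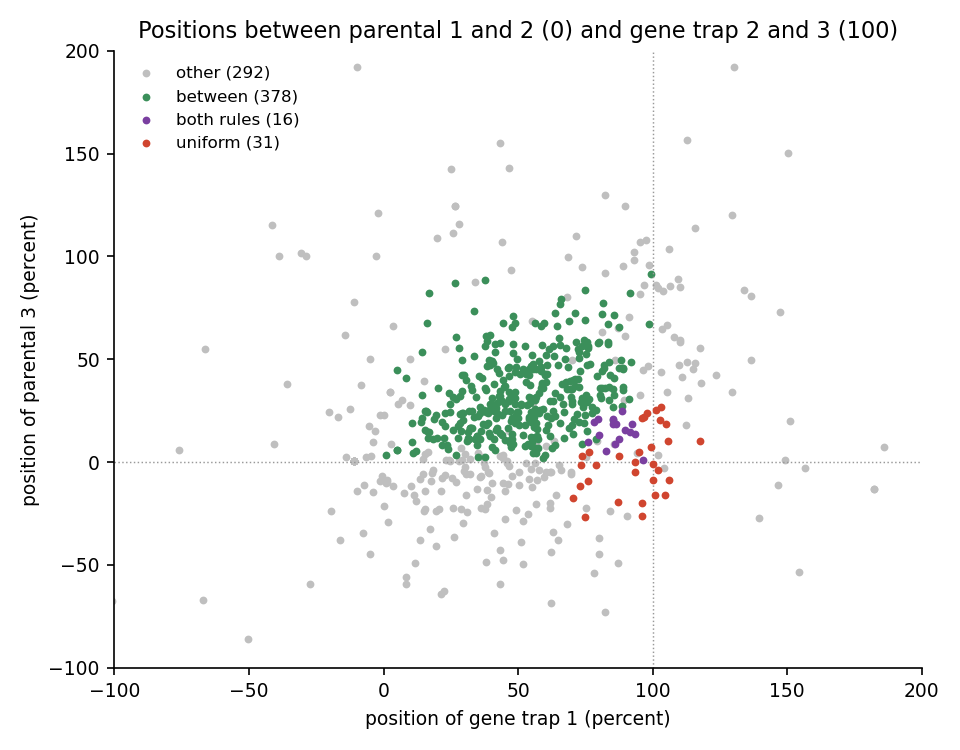
Position in percent of gene trap 1 (horizontal axis) and of parental 3 (vertical axis) for genes with a D of at least 1 in size, each point 1 gene coloured by class, with 9 genes outside the axes. Genes that are between only have median positions of 52.9 and 30.7 percent, and genes that are uniform only sit near 100 and 0, with medians of 96.0 and -0.93 percent.

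With all 6 libraries 1576 genes passed (12.3%), of which 968 were higher in the gene trap line (7.53%) and 608 lower (4.73%). The lines did not overlap in 4929 genes (38.3%), which included all 1576. The median log2 fold change over all tested genes was 0.03. After quantile normalization 1557 genes passed, and 46.2% of them were higher, against 61.4% without it. The count rested on single libraries. It was 4054 without gene trap 1, 1891 without parental 3 and 6102 without both, and it was 62, 56, 49 and 59 without gene trap 2, gene trap 3, parental 1 and parental 2. Of the 1576 genes 40 passed in all 6 fits that left out 1 library: 25 were uniform only, 12 met both rules, 1 was between only and 2 had a D under 1. All 1576 kept their direction in these 6 fits, as genes with lines that do not overlap must. The fits use the same libraries as the uniform rule, so passing in all 6 is in large part built into that class. For a uniform gene it is therefore not separate support.

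Imprinted genes, which are read mainly from the maternal or the paternal copy, included the uniform gene with the highest fold change. Mest (chr6:30673547-30698457, plus strand), a paternally expressed gene, was at 2.15, 2.06 and 2.90 TPM in the parental line and at 61.5, 68.5 and 57.6 TPM in the gene trap line. Every gene trap library was far above every parental library (log2 fold change 4.24, SE 0.13, limma adjusted p = 6.69e-05). Igf2 (chr7:149836673-149852721, minus strand), a fetal growth factor, was at 5.74, 5.52 and 8.66 TPM against 27.3, 27.2 and 24.9 TPM (log2 fold change 1.87, SE 0.16, limma adjusted p = 0.00533). Dlk1 (chr12:110691033-110701546, plus strand), a membrane protein related to the Notch ligands, was at 1.20, 1.32 and 1.97 TPM against 5.92, 7.02 and 5.27 TPM (log2 fold change 1.51, SE 0.16, limma adjusted p = 0.00832). In both, parental 3 was the highest of the parental libraries and still far below the gene trap line. H19, the non-coding RNA next to Igf2, was at 0.925, 0.155 and 0.60 TPM against 1.59, 2.20 and 1.78 TPM, and Nespas, an antisense transcript of the Gnas locus, at 1.37, 1.32 and 1.77 TPM against 2.57, 2.54 and 2.74 TPM. Whether the authors' counting used strand is not given in the sources used here, so reads of Nespas and of the genes it overlaps may not have been told apart. Of the 17 tested imprinted genes these 5 rose and none fell, where 7.53% of all tested genes rose and 4.73% fell. The list's median log2 fold change was 0.26. Mest, Igf2 and Dlk1 passed in each of the 6 fits that left out 1 library, and without gene trap 2, gene trap 3, parental 1 or parental 2 they were the 3 that passed. Among the other 12, Peg3 had a log2 fold change of -0.09, Snrpn of 0.24, Meg3 of 0.41 and Igf2r of -0.41.

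Other uniform genes that were higher in the gene trap line encode proteins of several kinds. Hspa1a, an inducible Hsp70 chaperone, was at 0.480, 0.486 and 0.982 TPM against 5.38, 4.38 and 5.98 TPM (log2 fold change 1.93, limma adjusted p = 0.00533). Odc1, which makes putrescine in polyamine synthesis, was at 165, 171 and 211 TPM against 414, 401 and 418 TPM (log2 fold change 1.18, limma adjusted p = 0.00598). Tcf7l1, a repressor of Wnt target genes in ES cells, was at 53.3, 55.8 and 50.7 TPM against 99.1, 117 and 123 TPM (log2 fold change 1.07, limma adjusted p = 0.00666). In these 3 genes the libraries of a line lay close together, as the uniform rule requires. Each of the 3 passed in all 6 fits that left out 1 library. Col4a1, a basement membrane collagen, was at 1.21, 1.47 and 1.44 TPM against 4.43, 4.62 and 4.77 TPM, and Enpp2, the enzyme autotaxin, at 1.35, 1.53 and 2.01 TPM against 7.14, 7.49 and 5.97 TPM. Homer1, Sdc1 (syndecan 1) and Ift20, a protein of transport in cilia, were also uniform, with log2 fold changes of 1.03, 1.08 and 1.02. BC016423 was at 3.33, 3.42 and 4.31 TPM against 9.89, 12.0 and 11.1 TPM. The genes that met both rules and were higher included Spata5l1 (1.70), Akr1b10 (1.41), Kcnj3, a potassium channel (1.40), and Cldn6, a tight junction protein (1.1).

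On the lower side, the uniform gene with the lowest difference was AC164075.1 (chr7:87297706-87297765, minus strand), annotated as a microRNA. It was at 18, 14.4 and 20.9 TPM in the parental line and was listed at 0 in all 3 gene trap libraries (limma adjusted p = 6.69e-05), and it passed in all 6 fits that left out 1 library. The annotated stretch is short, the RNA was polyadenylated and no read counts are given. Few reads, or reads of an overlapping transcript, may therefore lie behind these TPM values, which was not tested. Smarca1 (chrX:45162547-45246151, minus strand), an ISWI chromatin remodeller, was at 4.2, 4.34 and 4.35 TPM in the parental line and was listed at 0 in all 3 gene trap libraries (limma adjusted p = 0.000158). It was picked out after its values were seen. Ndufa4l2, a mitochondrial protein known as a hypoxia target, was at 12.4, 16.7 and 15.2 TPM against 2.96, 2.82 and 3.32 TPM (log2 fold change -1.95, SE 0.13, limma adjusted p = 0.00233). Mras, a GTPase related to Ras, was at 34.3, 37.3 and 50.9 TPM against 12.9, 9.54 and 8.59 TPM (log2 fold change -1.88, SE 0.19, limma adjusted p = 0.00808). None of these overlapped between the lines, which the uniform rule requires. Usp26, an X-linked ubiquitin protease, was at 5.87, 5.83 and 5.97 TPM against 2.01, 1.44 and 1.38 TPM, and Ebp, a sterol isomerase of cholesterol synthesis, at 70.2, 74.1 and 70.6 TPM against 36.4, 33.2 and 32.9 TPM (log2 fold change -1.05, limma adjusted p = 0.00354). Ncam1, a neural cell adhesion molecule, was at 14.4, 14.4 and 10.5 TPM against 4.4, 3.36 and 4.10 TPM, and Shisa2, an inhibitor of FGF and Wnt receptors, at 11, 11.6 and 8.79 TPM against 3.87, 3.10 and 3.19 TPM, and both passed in all 6 fits that left out 1 library. Gad1, Lst1, Serpinb6c, Shf, Adap1, Krt42 and Pnma5 were uniform as well, from -1.61 for Gad1 to -1.22 for Pnma5. Of the 47 genes that met the uniform rule 6 are on the X chromosome (Rbm10, Smarca1, Usp26, Ebp, Pnma5 and Suv39h1), or 12.8%, where 3.88% of the tested genes lie. Over all tested genes on X 12.8% passed, and 9.76 to 13.8% passed on each of the 19 autosomes.

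Vegfa and Pfkp met both rules. Vegfa, a growth factor for blood vessels and a hypoxia target, was at 44.2, 43.5 and 33.6 TPM against 15.8, 11.4 and 12.8 TPM (log2 fold change -1.53, SE 0.15, limma adjusted p = 0.00769). Pfkp, a phosphofructokinase of glycolysis, was at 151, 155 and 131 TPM against 58.7, 52.7 and 54.8 TPM (log2 fold change -1.37, SE 0.09, limma adjusted p = 0.00279). In each, every gene trap library was below every parental library, and both passed in all 6 fits that left out 1 library. Of the 32 tested genes of glycolysis and hypoxia 5 fell, the others being Aldoc, Ndrg1 and Ddit4, and the glucose transporter Slc2a1 rose. The list's median was 0.02, and over all tested genes 4.73% fell and 7.53% rose. Without gene trap 1, 8 fell and 4 rose, and without parental 3, 5 fell and 5 rose. None rose and 2 or 3 fell without gene trap 2, gene trap 3, parental 1 or parental 2.

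**Figure D3:**
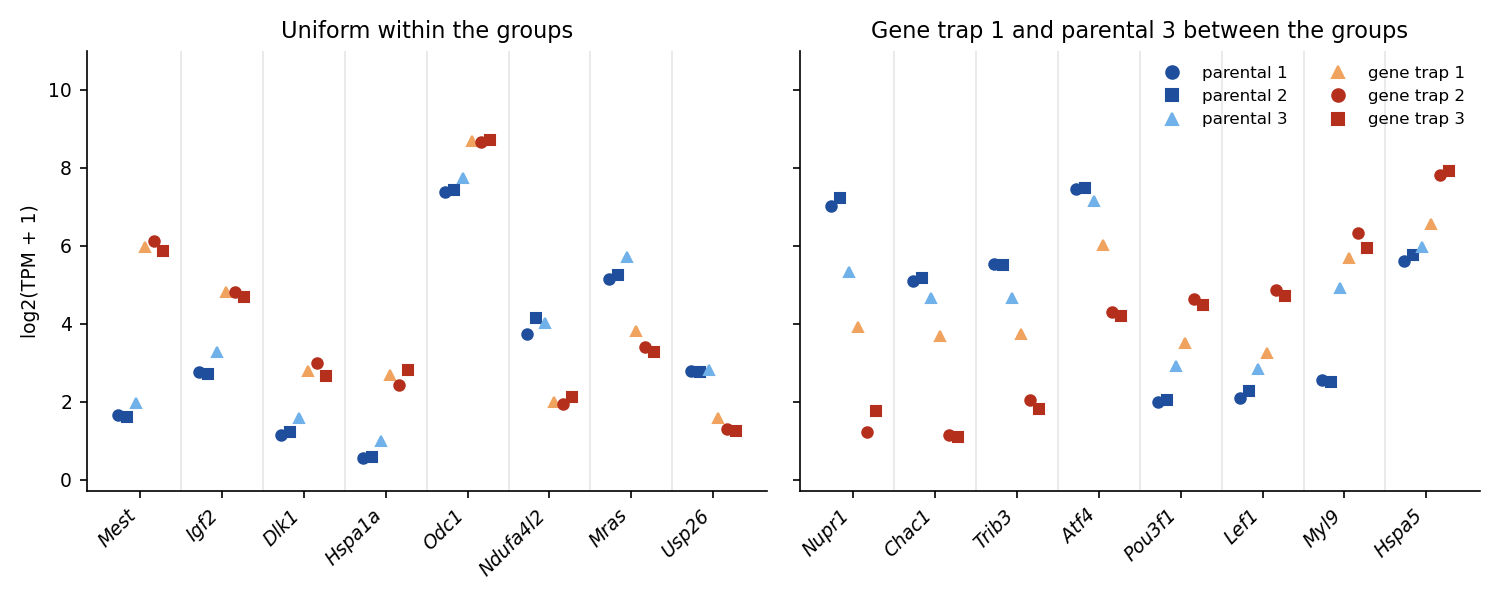
log2(TPM + 1) (vertical axis) of 8 uniform genes (left) and 8 genes of the between class (right), each point 1 library. As the class rules require, the 3 libraries of a line lie together among the uniform genes. Among the between genes gene trap 1 and parental 3 lie inside the gap left by the other 4 libraries.

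The between genes included 20 of the 26 tested genes of the integrated stress response, where 3.06% of all tested genes met the between rule. Atf4 (chr15:80085614-80087970, plus strand), its central transcription factor, was at 175, 178 and 139 TPM in the parental line and at 63.9, 18.7 and 17.2 TPM in the gene trap line (log2 fold change -2.53, SE 0.46, limma adjusted p = 0.0269). The lines did not overlap, and gene trap 1 stood at 45 percent and parental 3 at 10.5 percent of the way. Nupr1 (chr7:133766763-133770524, minus strand), a small nuclear protein induced by stress, was at 127, 148 and 38.9 TPM against 14.2, 1.31 and 2.36 TPM (log2 fold change -4.22, SE 0.78, limma adjusted p = 0.0269). Chac1, an enzyme that degrades glutathione, was at 32.9, 35 and 24.5 TPM against 12.0, 1.22 and 1.13 TPM (log2 fold change -2.99, SE 0.67, limma adjusted p = 0.0378). Trib3, a pseudokinase that feeds back on ATF4, was at 45.4, 44.3 and 24.1 TPM against 12.2, 3.12 and 2.52 TPM (log2 fold change -2.70, SE 0.51, limma adjusted p = 0.0278). In each of these, as the between rule requires, parental 3 was the lowest parental library and gene trap 1 the highest gene trap library.

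Of the 26 tested stress response genes 15 fell, none rose and 20 met the between rule. Over all tested genes 4.73% fell and 3.06% met that rule. The list's median log2 fold change was -1.18 against 0.03 over all genes. The genes that fell were the transcription factors Atf4 and Atf3, enzymes of serine, one-carbon and amino acid metabolism (Psph, Shmt2, Mthfd2, Pck2, Cth and Gpt2), the amino acid transporter Slc7a5, and Nupr1, Trib3, Chac1, Sesn2, Stc2 and Vldlr. Ddit3, which encodes the factor CHOP, did not pass (log2 fold change -2.94, limma adjusted p = 0.0716). It was at 97.0, 107 and 22.2 TPM in the parental line and at 28.2, 3.49 and 3.14 TPM in the gene trap line, so that parental 3 was below gene trap 1. Asns, which makes asparagine, was at 285, 291 and 142 TPM against 129, 113 and 102 TPM and did not pass, and the cystine transporter Slc7a11 had a log2 fold change of 0.23. Relative to the mean of parental 1 and 2, the list's median was -0.71 in parental 3, -1.13 in gene trap 1, -1.62 in gene trap 2 and -1.53 in gene trap 3. The number that fell was 18 without gene trap 1, 20 without parental 3 and 24 without both, and 0 without any of the other libraries. The median stayed between -1.44 and -1.02 in the 6 fits that left out 1 library.

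Some chaperone genes rose in the gene trap line, 9 of the 26 tested, where 7.53% of all tested genes rose. Hspa5 (chr2:34627490-34632051, plus strand), the main chaperone of the endoplasmic reticulum, was at 48.0, 53.3 and 61.5 TPM against 92.7, 225 and 239 TPM (log2 fold change 1.65, SE 0.35, limma adjusted p = 0.0345). The lines did not overlap, and gene trap 1 was well below gene trap 2 and 3. Hsp90b1, the Hsp90 of that compartment, was at 134, 147 and 176 TPM against 235, 335 and 369 TPM, and Hspa1b, an inducible Hsp70, at 3.01, 3.47 and 5.56 TPM against 11.5, 15.8 and 22.7 TPM. Hspa1a and Hspa1b are near-identical copies, and the authors' counting could have split their reads. Those that rose were Hspa1a, Hspa1b, Pdia4, Pdia6, Hsp90b1, Hspa5, Hsph1, Hspd1 and Calr, while Herpud1 fell and 16 did not pass, with a list median of 0.52. Herpud1, which acts in the removal of misfolded proteins, was at 22.1, 25.9 and 23.3 TPM against 12.1, 4.92 and 4.73 TPM (log2 fold change -1.70, limma adjusted p = 0.0269). Without gene trap 1, 18 rose, and without gene trap 2, gene trap 3, parental 1 or parental 2, 1 did.

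Some markers of the naive state fell and some of the primed state rose, where 4.73% of all tested genes fell and 7.53% rose. Among 20 tested naive genes 9 fell, 1 rose and 10 did not pass, with a median of -0.41. Nanog (chr6:122657507-122664651, plus strand) was at 344, 337 and 313 TPM against 229, 172 and 165 TPM (log2 fold change -0.82, SE 0.14, limma adjusted p = 0.0229). Esrrb (chr12:87702067-87862578, plus strand), an orphan nuclear receptor, was at 245, 249 and 203 TPM against 137, 80.3 and 94.3 TPM (log2 fold change -1.19, SE 0.20, limma adjusted p = 0.0232). Tbx3, a T-box factor, was at 28.2, 28.9 and 25.7 TPM against 10.8, 4.4 and 7.55 TPM (log2 fold change -1.81, SE 0.26, limma adjusted p = 0.0185). In all 3 the gene trap libraries were below every parental library, and gene trap 1 was the highest among them. Tcl1 was at 76.4, 81.2 and 67.2 TPM against 35.8, 26.3 and 29.1 TPM and Tcfcp2l1, a transcription factor that responds to LIF, at 25.8, 25 and 28.6 TPM against 11.5, 6.06 and 6.30 TPM. Nr5a2, Prdm14, Klf2 and Klf4 fell as well, by 0.62, 0.66, 1.11 and 0.68 on the log2 scale. Gbx2, a homeobox gene, rose and was at 7.72, 7.16 and 9.38 TPM against 16.1, 26.6 and 25.2 TPM. Zfp42 (Rex1) had a log2 fold change of -0.55 (limma adjusted p = 0.0995), and Dppa5a of -0.11.

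Of 14 tested genes of the primed state and the exit from pluripotency 9 rose and none fell, with a median of 0.98. Pou3f1 (chr4:124334889-124337899, plus strand), a POU factor also called Oct6, was at 2.96, 3.13 and 6.59 TPM against 10.3, 23.7 and 21.1 TPM (log2 fold change 1.88, SE 0.36, limma adjusted p = 0.0282). Lef1 (chr3:130813389-130927274, plus strand), a transcription factor of the Wnt pathway, was at 3.24, 3.85 and 6.12 TPM against 8.51, 27.9 and 25.4 TPM (log2 fold change 1.88, SE 0.43, limma adjusted p = 0.0404). Both met the between rule, which requires that parental 3 be the highest parental library and gene trap 1 the lowest gene trap library. Dnmt3a was at 52.1, 54.8 and 98.3 TPM against 169, 178 and 129.7 TPM, Dnmt3b at 47.0, 45.3 and 71.7 TPM against 96.4, 98.8 and 85.6 TPM, and Otx2 at 21.7, 24.4 and 20.1 TPM against 33.5, 58.9 and 62.2 TPM. Sox3, Sall2, Fgf15 and Tcf15 also rose, while Foxd3, Etv4, Etv5, Cdh2 and Zic2 did not pass, and Fgf5 and Wnt8a were too low to be tested. Among 12 core pluripotency genes L1td1, Utf1 and Sall4 rose and none fell, with a median of 0.22. Pou5f1 was at 553, 571 and 557 TPM against 683, 656 and 634 TPM (log2 fold change 0.23, limma adjusted p = 0.0925) and Sox2 at 251, 263 and 208 TPM against 192, 166 and 178 TPM (log2 fold change -0.42, limma adjusted p = 0.0561).

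These counts also rested on the libraries. Without gene trap 1 and parental 3 together, 13 naive genes fell and 3 rose, and 13 primed genes rose. No naive gene passed without gene trap 3 or without parental 1, 2 fell without gene trap 2 and 1 without parental 2. No primed and no core gene passed without any of these 4 libraries, while the medians stayed between -0.51 and -0.31 for the naive list and between 0.91 and 1.09 for the primed list.

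**Figure D4:**
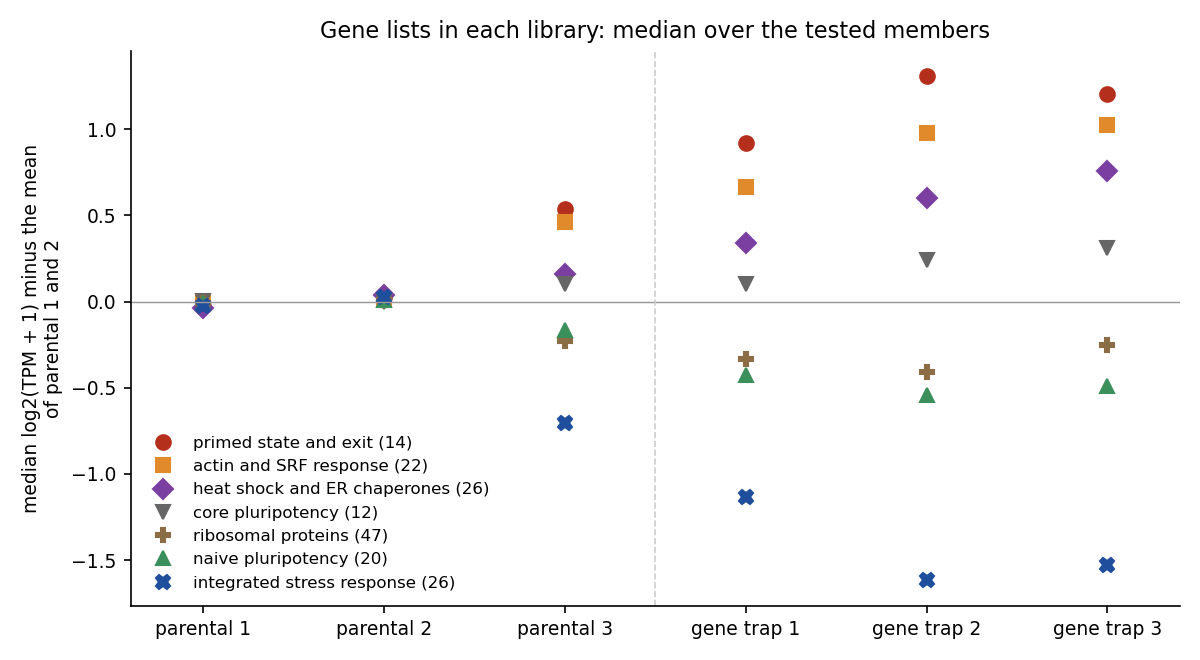
Median over the tested members of 7 gene lists of log2(TPM + 1) minus the mean of parental 1 and 2 (vertical axis), in each ES library. For the stress response parental 3 stands at -0.71 and gene trap 1 at -1.13, with gene trap 2 and 3 at -1.62 and -1.53, and for the primed list the same libraries stand at 0.54, 0.92, 1.31 and 1.20.

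Of 22 tested genes of the actin cytoskeleton and targets of serum response factor (SRF) 10 rose, none fell and 12 did not pass, with a median of 0.67, where 7.53% of all tested genes rose. Actg1 (chr11:120207004-120209856, minus strand), cytoplasmic gamma actin, was at 399, 371 and 525 TPM against 909, 1120.2 and 1034 TPM (log2 fold change 1.25, SE 0.15, limma adjusted p = 0.0135). Myl9 (chr2:156601156-156607394, plus strand), a myosin light chain, was at 4.88, 4.66 and 29.0 TPM against 50.5, 79.4 and 60.3 TPM (log2 fold change 2.66, SE 0.62, limma adjusted p = 0.0414). Parental 3 was the highest parental library in both, and for Myl9 it was several times above the other parental libraries. Srf itself was at 14.8, 15.4 and 20.1 TPM against 27.7, 39.5 and 39.2 TPM, and Actb, Acta2, Cnn1, Cnn2, Cyr61, Ctgf and Zyx made up the rest of those that rose. The immediate early genes Fos and Egr1 of the same list had log2 fold changes of 0.18 and 0.27. The count was 15 without gene trap 1, 14 without parental 3, 18 without both and 0 without any of the other libraries. Acta2 also marks fibroblasts, whose marker Thy1 was at 2.78, 2.62 and 5.21 TPM against 2.97, 1.80 and 1.79 TPM.

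Other genes were named for the size of their difference. Car4, a carbonic anhydrase, was at 7.19, 7.47 and 16.6 TPM against 41.0, 54.3 and 34.9 TPM (log2 fold change 2.03, limma adjusted p = 0.0201), and Wt1, a zinc finger transcription factor, at 1.28, 1.08 and 3.85 TPM against 8.14, 13.8 and 9.66 TPM (log2 fold change 1.99, limma adjusted p = 0.0247). Pcdh1, a protocadherin, and Nefh, a neurofilament subunit, rose by 1.75 and 1.73 on the log2 scale, and mt-Tf, a mitochondrial tRNA gene, by 1.61. In each the lines did not overlap, as in every gene that passed. Among genes that were lower, G0s2, an inhibitor of a triglyceride lipase, was at 8.66, 10.3 and 2.92 TPM against 0.832, 0.390 and 0.520 TPM (log2 fold change -2.26, limma adjusted p = 0.0238), and Sat1, which acetylates polyamines, at 51.6, 49.9 and 47.4 TPM against 20.5, 10.6 and 9.29 TPM (log2 fold change -1.89, limma adjusted p = 0.0165). Lrrc31 fell by 2.03 on the log2 scale. Atf5, a transcription factor related to ATF4 and a member of the stress response list, was at 69.8, 78.6 and 10.8 TPM against 8.57, 6.04 and 7.85 TPM and did not pass (limma adjusted p = 0.0719), and parental 3 lay near the gene trap line. Txnip, which binds thioredoxin, was at 263, 292 and 79.0 TPM against 127, 35.4 and 35.2 TPM and did not pass either (limma adjusted p = 0.115), with lines that overlapped. AC153918.1, annotated as a microRNA, was at 15.6, 16.0 and 14.2 TPM in the parental line and at 15.4, 0 and 0 TPM in the gene trap line, so that gene trap 1 was among the parental libraries. AC153918.1 and mt-Tf are short, and the limit given for AC164075.1 holds for both.

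Signalling genes were counted in several lists, where 7.53% of all tested genes rose and 4.73% fell. Of 17 tested genes of Nodal and related signalling 3 rose and 4 fell, with a median of 0.15. The ligand Nodal was at 29.3, 28.0 and 30.6 TPM against 22.6, 16.4 and 15.7 TPM, and its receptor Acvr1b and inhibitor Lefty1 fell by 0.60 and 1.21 on the log2 scale. Lefty2 (chr1:182823239-182829234, plus strand), another inhibitor, met both class rules and was at 58.8, 62.4 and 53.3 TPM against 24.7, 23.0 and 23.5 TPM (log2 fold change -1.26, SE 0.09, limma adjusted p = 0.00305). It passed in all 6 fits that left out 1 library. The signal transducers Smad2 and Smad3 were among those that rose, with log2 fold changes of 0.57 and 0.48. Without parental 3, 6 genes of the list rose and 2 fell, and without gene trap 2, gene trap 3, parental 1 or parental 2 none rose and 1 fell. Of 18 tested genes of the FGF and ERK response Dusp6, Dusp5 and Spry2, which restrain that pathway, rose (median of the list 0.31), and Dusp6 was at 22.3, 22.8 and 22.6 TPM against 34.6, 43.2 and 43.3 TPM. Of 16 genes of the LIF and STAT3 response Socs3, Junb, Gbx2 and Spry2 rose and Klf4 and Tcfcp2l1 fell (median 0.18), and Stat3 had a log2 fold change of -0.01. Of 14 Wnt genes Lef1 and Tcf7l1 rose and Cdx1 fell (median 0.21), and of 15 Notch genes Dll3 rose (median 0.10). Of these last 4 lists 1 gene, a Wnt gene that rose, passed without gene trap 2, gene trap 3, parental 1 or parental 2.

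Some genes of the germ layer lists passed, where 7.53% of all tested genes rose and 4.73% fell. Of 10 tested genes of primitive endoderm and endoderm Col4a1, Col4a2, Srgn and Dab2 rose and none fell (median 0.32). Without gene trap 1, 4 rose and 2 fell. The TPM summed over the list's 20 members was 1145, 1222 and 1055 in the parental line and 959, 520 and 614 in the gene trap line. Such a sum is weighted to the most abundant members, so it can fall although the median of the tested genes is above 0. Dab2, an endocytic adaptor, was at 1.57, 1.73 and 2.39 TPM against 5.05, 4.06 and 3.58 TPM, and every gene trap library was above every parental library. Gata4 was at 0.857 to 1.01 TPM against 1.09 to 1.49 TPM and did not pass. Of 4 tested mesendoderm and mesoderm genes Hand1 rose and Cdx1 fell (median 0.29), and Hand1 was at 0.898, 0.395 and 0.641 TPM against 3.89, 3.58 and 1.53 TPM. Eomes was at 1.21, 1.32 and 1.38 TPM against 1.03, 3.30 and 3.73 TPM, so that gene trap 1 was below the parental line and gene trap 2 and 3 above it. Of 7 tested trophectoderm genes Hand1 rose and the transcription factors Tcfap2c and Tead4 fell (median 0.34). Tcfap2c was at 33.8, 32.9 and 33.2 TPM against 18.8, 16.3 and 18.5 TPM (log2 fold change -0.87, limma adjusted p = 0.00761). Of 7 neural genes Stmn3 fell (median -0.43), and of 13 epithelial genes Cldn6, Cldn7 and Tjp1 rose (median 0.29). Without gene trap 2, gene trap 3, parental 1 or parental 2, 1 or 2 of the primitive endoderm list rose and none fell, and 0 to 2 genes passed in each of the other lists just given.

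Splicing factor genes were counted in 3 lists, where 7.53% of all tested genes rose and 4.73% fell. Of 18 tested genes for proteins of the branch point and the 3′ splice site Sf1, Sf3b4, Phf5a and Rbm17 rose and none fell (median 0.23). Sf1, which binds the branch point, was at 302, 298 and 326 TPM against 391, 402 and 441 TPM, and Phf5a, a subunit of SF3B, at 150.3, 133 and 158 TPM against 209, 255 and 221 TPM. Their lines did not overlap. Of 23 hnRNP genes Hnrnpab, Hnrnpd and Syncrip rose (median 0.15), and of 15 SR protein genes Srsf10 rose (median 0.36). Without gene trap 1, 9 of the first list and 11 of the SR genes rose, and without gene trap 2, gene trap 3, parental 1 or parental 2 none of these lists had a gene that passed. Of 15 genes reported as splicing targets of RBM10, Crem rose and Casp9 and Vegfa fell (median 0.04), and Numb had a log2 fold change of 0.03.

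Of the 13 tested genes beside Rbm10 on the X chromosome 4 fell and none rose (median -0.29). Over all tested genes 4.73% fell and 7.53% rose. Timp1 (chrX:20447292-20451861, plus strand), an inhibitor of matrix proteases, was at 42.1, 44.1 and 40.3 TPM against 26.6, 17.7 and 17.7 TPM (log2 fold change -1.02, SE 0.16, limma adjusted p = 0.0212). Ndufb11, Araf and Cdk16 fell by 0.66, 0.55 and 0.32 on the log2 scale. Uba1, which encodes a ubiquitin-activating enzyme, was at 409, 415 and 429 TPM against 413, 377 and 378 TPM, with lines that overlapped. None of the 13 passed without gene trap 2, gene trap 3, parental 1 or parental 2.

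The remaining lists had from 0 to 5 genes that passed, where 12.3% of all tested genes did. Of 26 p53 targets Cdkn1a, Sesn2 and Gdf15 fell (median 0.10), Sesn2 being also in the stress response list. Of 47 ribosomal protein genes Rpl3, Rpl10a and Rps20 fell (median -0.23), and 12 fell and 1 rose without parental 3, while none passed without gene trap 2, gene trap 3, parental 1 or parental 2. None of the 12 listed genes of the mitochondrial genome passed in limma, although all 12 log2 fold changes were above 0 (median 0.37). Relative to parental 1 and 2 the median of these 12 was 0.01 in gene trap 1, 0.90 in gene trap 2, 0.57 in gene trap 3 and 0.44 in parental 3. Of the 12, 3 rose without gene trap 1 and 10 without gene trap 1 and parental 3 together. Of 35 cell cycle genes Cdc20 and Ccne1 rose (median 0.08). Of 19 interferon response genes Irf1, Psmb8 and Ifitm3 rose and Oas1a and Ifi35 fell (median 0.07), of 18 cholesterol genes 2 rose, Dhcr7 among them (median 0.28), and of 17 matrix genes Col4a1 and Col4a2 rose and Nid1 and Timp1 fell (median -0.08). Of 13 germline genes Mael rose and Sycp3 fell (median 0.21), and of 9 genes of the 2-cell-like state Tmem92-ps fell (median 0.04). Of 3 fibroblast genes Acta2 rose (median 0.71), of 4 leukocyte genes Laptm5 fell (median -0.27), and no gene of the 4 endothelial (median -0.08) and 10 histone genes (median -0.15) passed. Without gene trap 2, gene trap 3, parental 1 or parental 2, 1 or 2 matrix genes and at most 1 interferon gene passed, and none of the other lists just given had a gene that passed.

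Splicing was read as the share of each transcript in its gene's TPM and as the inclusion of cassette exons, the TPM of the transcripts that hold an exon as a percentage of those that hold or skip it. A feature passed with a limma adjusted p under 0.05 and a difference of at least 10 percentage points. Of 18872 transcript shares 8 passed (0.0424%), 5 higher (0.0265%) and 3 lower (0.0159%), and the lines did not overlap in 18.8%. Of 3714 cassette exons 7 passed (0.188%), 3 higher (0.0808%) and 4 lower (0.108%), and the lines did not overlap in 21.4%. The shares that passed were those of Rbm10-002 and Rbm10-003, 2 of Tubd1 and 1 each of Usp49, Rbm26, Masp2 and the non-coding Gm14820. Masp2-001, of a complement protease gene, held 43.5, 43.2 and 45.5% of its gene's TPM in the parental line and 72.3, 77.1 and 76.2% in the gene trap line (31.1 points, limma adjusted p = 0.023), while the gene fell (5.26, 5.13 and 6.09 TPM against 2.61, 1.76 and 1.58 TPM). This share passed in 1 of the 6 fits that left out 1 library. All these values rest on the assignment of reads to transcripts by the authors, whose error is not given in the sources used here.

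The exons with higher inclusion in the gene trap line are shown with 18 intron bases before and 10 after them in lower case and the exon in capitals, so that the exon gained and its splice sites can be read. The coordinates are of NCBIM37/mm9: Tubd1 at chr11:86370197-86370289 on the plus strand, and Sbf2 at chr7:117484804-117484878 and Rbm26 at chr14:105538308-105538379 on the minus strand.
Tubd1: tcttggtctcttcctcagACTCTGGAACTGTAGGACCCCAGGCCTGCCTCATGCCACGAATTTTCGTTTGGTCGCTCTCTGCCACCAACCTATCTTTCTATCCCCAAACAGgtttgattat
Sbf2: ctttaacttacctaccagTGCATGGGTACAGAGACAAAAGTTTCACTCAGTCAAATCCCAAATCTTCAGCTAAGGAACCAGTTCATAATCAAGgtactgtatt
Rbm26: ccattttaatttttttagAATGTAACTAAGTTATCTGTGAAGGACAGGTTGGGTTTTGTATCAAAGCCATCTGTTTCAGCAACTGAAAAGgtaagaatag
All 3 lie in coding sequence and are 93, 75 and 72 bases long, multiples of 3. The upstream intron ends with ag and the downstream intron starts with gt in each, and 14, 12 and 13 of the 18 bases before the exon are pyrimidines.

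Tubd1 encodes delta-tubulin, a tubulin of centrioles. Its exon was included in 11.9, 8.0 and 11.2% of the TPM in the parental line and in 73.2, 82.7 and 84.9% in the gene trap line. No gene trap library came near a parental library (69.9 points, SE 3.63, limma adjusted p = 0.00348). It passed in 4 of the 6 fits that left out 1 library, with a difference of 67.5 to 73.4 points. Tubd1-001, which holds the exon, had 11.9, 8.0 and 11.2% of the gene's TPM against 69.7, 82.7 and 82.0%, and Tubd1-003, which skips it, 84.5, 88.4 and 80.8% against 26.8, 13.5 and 15.1%. The level of the gene, 2.94, 2.59 and 3.16 TPM against 3.47, 3.49 and 3.83 TPM, did not pass.

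Rbm26 encodes an RNA-binding protein with a zinc finger. Its exon was included in 44.8, 50.4 and 43.4% in the parental line and in 79.0, 81.4 and 81.8% in the gene trap line (34.5 points, SE 2.70, limma adjusted p = 0.0208). Sbf2 encodes a protein of the myotubularin family. Its exon was included in 38.9, 31.6 and 24.3% against 77.4, 76.8 and 79.2% (46.2 points, SE 3.97, limma adjusted p = 0.0242). In both, gene trap 1 lay with gene trap 2 and 3, and the levels of the genes did not pass (log2 fold changes 0.18 and -0.05). The Rbm26 exon passed in 2 of the 6 fits that left out 1 library and the Sbf2 exon in 1, with differences of 33.1 to 36.6 and 42.6 to 49.9 points.

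For the 4 exons with lower inclusion the 3′ splice sites are shown, as 18 intron bases in lower case and the first 10 exon bases in capitals, for comparison with those above. They are Ap1s3 at chr1:79620257-79620365, Fam69a at chr5:108353604-108353738 and Sc4mol at chr8:67208391-67208432 on the minus strand, and Usp49 at chr17:47811665-47811869 on the plus strand.
Ap1s3: tttttttttcttttcaagGTATGCTAGT
Fam69a: tgtgacctttgcttgcagGCTCGGTTGT
Sc4mol: tgtattctttgcatatagGGTGGGCAGT
Usp49: ccaatcttgtcattccagGTCACATGTA
The exons are 109, 135, 42 and 205 bases long, and 15, 11, 11 and 12 of the 18 intron bases are pyrimidines. The Sc4mol exon lies outside the annotated coding sequence and the other 3 within it. Of the 7 exons that passed 5 have a length that is a multiple of 3, against 50.2% of those tested.

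The Ap1s3 exon, in a gene for a small adaptor subunit of vesicle coats, was included in 100, 100 and 100% in the parental line and in 64.8, 46.1 and 51.4% in the gene trap line (-45.9 points, SE 4.88, limma adjusted p = 0.0449). The gene itself rose and was at 6.92, 6.08 and 9.06 TPM against 15.9, 21.5 and 21.5 TPM. The Fam69a exon was at 100, 98.5 and 100% against 61.5, 72.5 and 71.2% (-31.1 points, SE 3.43, limma adjusted p = 0.0449). The Usp49 exon, in a gene for a deubiquitinase, was at 100, 94.4 and 96.6% against 73.0, 68.7 and 69.6% (-26.6 points, SE 2.58, limma adjusted p = 0.0376). The exon of Sc4mol, a sterol oxidase gene, was at 25.7, 33.7 and 30.9% against 0, 0 and 5.46% (-28.3 points, SE 3.09, limma adjusted p = 0.0449). None of the 4 overlapped between the lines. Ap1s3, Fam69a and Usp49 each passed in 1 of the 6 fits that left out 1 library and Sc4mol in 0. All 4 kept their direction, as exons with lines that do not overlap must. By the class rules, applied to inclusion with a D of at least 10 points, the Tubd1, Sbf2, Rbm26, Sc4mol and Usp49 exons were uniform, and of all 882 exons with such a D 18 were uniform only, 157 between only and 3 both.

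**Figure D5:**
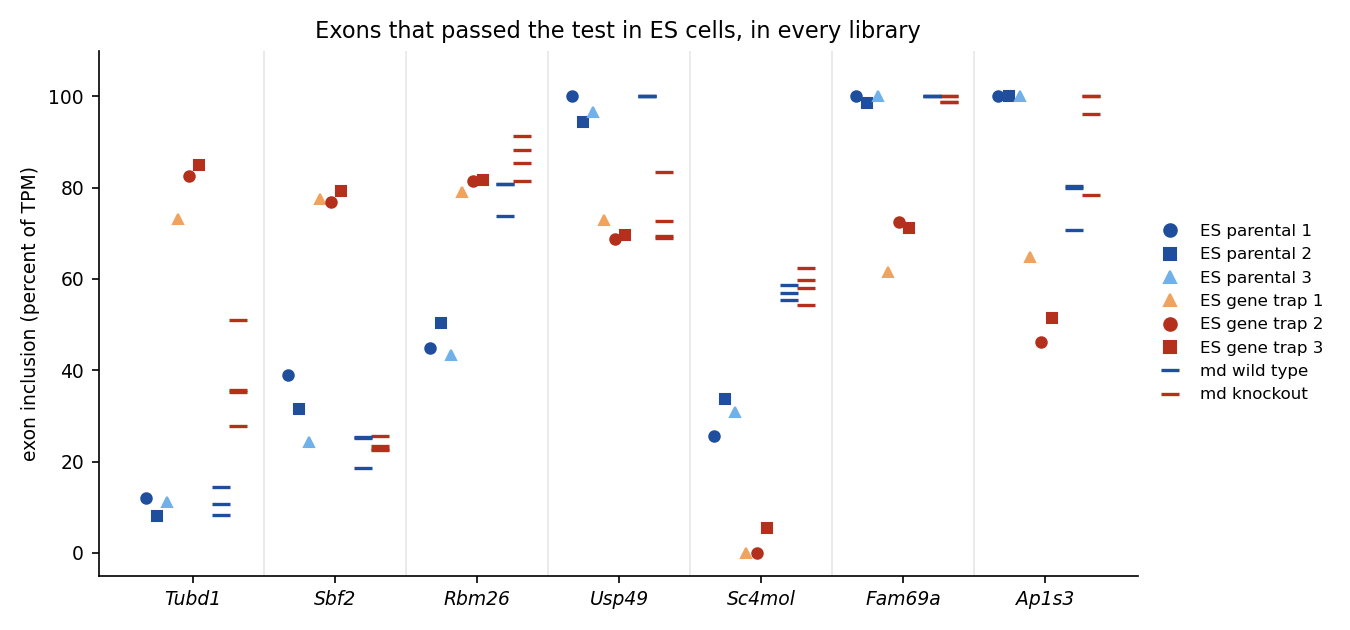
Inclusion in percent of TPM (vertical axis) of the 7 exons that passed in ES cells (horizontal axis, by gene), with each ES library as a point and each md library as a dash. The ES gene trap and parental libraries do not overlap for any of the 7. In md cells the Tubd1, Usp49 and Rbm26 exons lie apart in the same direction, Rbm26 by a narrow gap, and did not pass.

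The same exons were read in md cells, in which the knockout lines were made with CRISPR/Cas9. There Rbm10 RNA had a log2 fold change of -1.03 and did not pass (limma adjusted p = 0.762), against -2.74 in ES cells. Usp49 inclusion was 100, 100 and 100% in the wild-type libraries and 69.5, 83.5, 72.6 and 69.0% in the 4 knockout libraries. Tubd1 inclusion was 14.4, 8.36 and 10.8% against 35.2, 35.8, 27.7 and 51.0%. Rbm26 inclusion was 80.8, 73.8 and 80.8% against 81.5, 91.4, 88.2 and 85.4%. In these 3 exons every knockout library lay on the side on which the gene trap line lay in ES cells, with differences of -26.4, 26.2 and 8.14 points. None of the 3 passed over all exons tested in md cells (limma adjusted p = 0.203, 0.206 and 0.479). In ES cells the lines did not overlap in 21.4% of all tested exons, and that share is not given here for md cells. Sbf2 (18.7 to 25.3% against 22.4 to 25.5%) and Sc4mol (55.4 to 58.6% against 54.4 to 62.3%) overlapped. Fam69a, which was not tested in md cells, was at 100% in all wild-type libraries and at 98.8 to 100% in the knockouts. Ap1s3 differed by 16.7 points, opposite in sign to ES cells, and did not pass.

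In the iCLIP libraries of md cells crosslinks on the strand of the gene were counted in each exon and 100 bases on either side. The Rbm26 exon had 11, 23, 38 and 13 crosslinks in the 4 RBM10 libraries and 1, 1, 0 and 0 with IgG. Its sum of 85 was more than in 95.9% of the 3714 tested exons, whose median was 8 with RBM10 and 1 with IgG. Of the 85, 69 lay in the 100 bases upstream of the exon, 4 in the exon and 12 downstream. Sc4mol had 17 against 6 with IgG, Fam69a 16 against 1, and Sbf2 10 against 0. Ap1s3 and Tubd1 had 3 each against 0, and Usp49 had 1 against 2, so that these 3 exons were below the median. The counts come from other cells than the ES lines and scale with the level of the gene there. The libraries differed in depth, with 774816 to 2847066 crosslinks for RBM10 and 103017 to 2214515 for IgG.

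The make-up of the RNA was also read by annotated transcript class, where 3 against 3 libraries could not have passed at 0.05 whatever the difference. Protein-coding transcripts held 66.4, 66.5 and 67.4% of the TPM of the joined transcripts in the parental line and 67.0, 67.9 and 67.5% in the gene trap line. Transcripts annotated as subject to nonsense-mediated decay held 2.60, 2.64 and 2.46% against 2.82, 2.57 and 2.64%, and those with a retained intron 4.51, 4.52 and 4.74% against 4.86, 4.62 and 4.52%. Two-sided exact permutation tests gave p from 0.2 to 0.5 over 5 classes, all 0.5 after adjustment, and the smallest p this design allows is 0.1.

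The gene trap difference in ES cells was set against the knockout difference in md cells by a test of the difference between them. Of 10558 genes 104 passed (0.985%). For 51 of them the ES difference was above the md difference, and for 53 it was below. Of the 1576 genes that passed in ES cells 1176 were tested in md cells. None of these passed there in limma, and for 85 the difference between the cell types passed. The share of all md genes that passed is not given here, so the absence of calls is not a result about these genes. Nupr1 was at a mean of 105 TPM in parental and 5.96 TPM in gene trap ES cells and 38.5 TPM in wild-type and 67.1 TPM in knockout md cells (difference -4.77, SE 1.01, limma adjusted p = 0.0484). Mras was at a mean of 40.8 TPM in parental and 10.4 TPM in gene trap ES cells and 17.8 TPM in wild-type and 21.6 TPM in knockout md cells (difference -2.07, SE 0.37, limma adjusted p = 0.0321). Vegfa was at a mean of 40.4 TPM in parental and 13.4 TPM in gene trap ES cells and 26.9 TPM in wild-type and 29.8 TPM in knockout md cells (difference -1.67, SE 0.21, limma adjusted p = 0.00554). In all 3 the gene trap line was lower than its control and the md knockouts were not. Of 2704 cassette exons 13 passed (0.481%), 9 with an ES difference above the md difference and 4 with one below. Of the 6 ES exons in that test all but Usp49 passed. In ES cells each group is 1 line, so these differences hold the effect of RBM10 and that of the lines together.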

How the data were processed

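RNA from 3 gene trap and 3 parental ES libraries, and from 4 knockout and 3 wild-type md libraries, was compared within each cell type. TPM is the unit of the values the authors deposited for each transcript, in separate tables for ES and md cells. The submitters' processing notes name the builds mm9 and mm10, while the aligner and quantifier were not given in the sources used here. The iCLIP values are crosslink counts per position as the authors deposited them, in 4 RBM10 and 4 IgG libraries. The gene trap, its parental line and the md lines are as the labels give them, and every column was matched to its sample by title. The members and the 37 gene lists were chosen with earlier results of these data known.

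Transcripts were joined by Ensembl identifier to GENCODE vM1 (NCBIM37/mm9): 84877 of 100249 matched, with 85.4 to 87.5% of the TPM of the ES libraries. Gene TPM is the sum over transcripts. Tests used limma 3.58.1 in R 4.3.3, with a trend for genes, on log2(TPM + 1), on percent shares of transcripts and on percent inclusion of annotated cassette exons. Genes needed 1 TPM in 3 ES libraries. Shares and exons needed 1 TPM in every ES library and a mean of 5 to 95 percent. Benjamini-Hochberg adjustment ran over all features tested, at 0.05. The code was tested on simulated data. Tables and figures were made with pandas 2.3.3, numpy 2.4.6, matplotlib 3.10.9 and scipy 1.17.1 in Python 3.11.15.

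Genes were named by rule: Rbm10 and its paralogs, the 15 genes per direction with the largest change among those past the threshold with at least 5 TPM, 10 per direction of the uniform and of the between class, up to 4 per list by p, any member of the pluripotency and germ layer lists, and 5 genes and 5 exons per direction for the comparison with md cells. A few genes that these rules select are not reported here. Other list members, the remaining uniform genes (Smarca1, Ebp and Ift20 among them), and the exons in genes under 5 TPM were named after their values were seen. Alternatives were leaving out each library or gene trap 1 and parental 3 together, a replicate block, weights per library, other pseudocounts, filters and scales, quantile normalization and other class thresholds. TPM carries no depth, so no interval from counts could be given, and crosslink counts cover counting error only.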

Additional observations from a re-analysis of the deposited data

Results flagged for a closer look

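For several genes the difference between gene trap and parental ES cells was unlike that between knockout and wild-type md cells, by a limma test of the difference itself. On the log2 scale the ES difference minus the md difference was -4.77 for Nupr1, -2.235 for Jdp2, -2.16 for Pltp, -2.07 for Mras and -2.04 for Aff1. It was 2.31 for Eif2s3y, which is Y-linked, 2.19 for Ap1s3, 1.503 for Dnmt3a, 1.502 for Cyr61 and 1.475 for Gm17709. For Eif2s3y the ES difference was 0.05 and the md difference -2.25. Its mean was 3.82 TPM in wild-type and 0 TPM in knockout md cells.

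For cassette exons the same measure, in percentage points of inclusion, was -62.55 for Ap1s3, -30.35 for Add1 and -30.0 for Sc4mol. It was 48.3 for Synj2bp, 45.7 for Sbf2, 43.6 for Tubd1, 28.8 for Pphln1 and 26.4 for Rbm26.

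In the iCLIP libraries single libraries stood apart from the other 3 of their group in crosslinks over the exon windows, scaled to the total of the library (CPM). These were 7.74 at the Fam69a exon with RBM10, 1.04 at the Fam69a exon with IgG and 0.897 at the Usp49 exon with RBM10. The counts behind them are small: the value at Fam69a with IgG and that at Usp49 with RBM10 are each 1 crosslink. Where only 1 library of a group has a crosslink it is always set apart by this rule, so these flags carry no known rate of chance.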

How the results depend on the processing

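All 1576 ES genes kept their direction when 1 library was left out, as lines that do not overlap require. The number that passed ran from 49 to 4054, and it was 6102 without gene trap 1 and parental 3 together. It was 7246 with weights per library, which gave gene trap 1 a weight of 0.189 and parental 3 a weight of 0.312, and 774 without a filter on low values. The 8 transcript shares became 1 to 26 with 1 library left out, 0 without both libraries, 33 with weights, 40 on the logit scale and 14 at 5 TPM. The 7 exons became 0 to 12 with 1 library left out, 0 without both, 34 with weights, 21 on the logit scale and 34 at 5 TPM. Leaving out both libraries raised the genes that differed between ES and md cells from 104 to 795 and the exons from 13 to 71. With a D of at least 0.5 the between class held 1558 genes and the uniform class 154, and the uniform class held 116 when the range could reach 1/2 of the difference. The causes of these shifts were not tested.

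A replicate block left 422 genes, of which 408 were among the 1576, and 0 shares and 0 exons. No label says that the replicate numbers pair the samples. Libraries of the same number had deviations that correlated at 0.165, -0.135 and 0.0388, and not every library correlated best with its own number. Gene trap 1 did, with parental 1. Each deviation is from the mean of its own line, so these correlations are tied together. They cannot settle whether the numbers pair the samples.

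No result named by rule reversed under any alternative. Without gene trap 2, gene trap 3, parental 1 or parental 2, 114, 116, 117 and 115 of 228 such results lost their call, against 3 without gene trap 1 and 30 without parental 3. The limits are the number of libraries, 1 line per group, and an unknown depth.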

Other observations

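A stretch of the X chromosome (chrX:7638297-7783651, NCBIM37/mm9) from Suv39h1 to Porcn holds 8 tested genes, of which 4 fell and 1 rose. It was picked out after the values were seen, and over all tested genes 4.73% fell and 7.53% rose. Porcn, which acylates Wnt proteins, was at 20.6, 22.0 and 22.1 TPM against 11.3, 10.00 and 10.7 TPM (log2 fold change -0.96, SE 0.09, limma adjusted p = 0.00598), with lines that did not overlap. Wdr13 and Tbc1d25 fell by 0.66 and 0.53 on the log2 scale, beside Ebp at 70.2, 74.1 and 70.6 TPM against 36.4, 33.2 and 32.9 TPM. Suv39h1, a histone H3 methyltransferase, rose and was at 8.43, 8.20 and 8.97 TPM against 14.9, 17.6 and 18.2 TPM (log2 fold change 0.90, SE 0.10, limma adjusted p = 0.0105). Was, Rbm3 and 2900002K06Rik did not pass.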
